A study of Mus musculus with 6 samples.

Results

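Alveolar type 2 cells of the aged mouse lung were described from single-cell RNA sequencing of 6 lung samples. A cell barcode was taken as a type 2 cell when it held at least 2 UMIs (unique molecular identifiers, each standing for a captured transcript) of Lamp3, at least 1 of Slc34a2, at least 20 of Sftpc, none of Cdh5 or Foxj1 and at most 1 of Ptprc. It also had to pass the filter for all cells, which left out barcodes under 500 genes or under 1000 UMIs and those above 15% mitochondrial UMIs. This rule found 721 cells among 88616 retained barcodes (94392 in all). The p16-DTR-labelled libraries gave 87, 110 and 101 of them (298 cells), and the control libraries 123, 132 and 168 (423 cells). Since these genes chose the cells, the levels of Sftpc, Lamp3 and Slc34a2 are given as descriptions throughout.

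All samples came from male C57BL/6 mice aged 21 months. The p16-DTR group (n = 3) carried p16-CreERT2/R26-LSL-DTR and the control group (n = 3) p16-CreERT2 alone. In this model a tamoxifen-activated Cre, driven by the p16 locus, switches on a diphtheria toxin receptor, and the toxin then kills cells that carry it. Both groups received tamoxifen for 5 days and, 2 weeks later, diphtheria toxin for 5 days, with 2 weeks of recovery before the lung was taken, so the control mice were also given both agents. After a liberase digestion, cells of a lung were sorted, and 20000 without CD45 were pooled with 9000 carrying it. The Cre and the receptor act in any cell with an active p16 locus and not in type 2 cells alone. The labels number the samples of a group without stating that each is a separate mouse, so p-values measure the spread between these samples.

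Type 2 cells are the cuboidal secretory cells of the alveolus. They make surfactant, a film of lipid and the proteins SP-A, SP-B, SP-C and SP-D that lowers surface tension, store it in lamellar bodies, and recycle it. They also serve as progenitors, since they divide and can become the thin type 1 cells that carry gas exchange, and they take part in innate defence.

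The cells matched their label in the markers that the rule did not use. Cxcl15, a chemokine made by lung epithelium, stood at 7698 CPM (UMIs per 1000000 of the summed counts; SD 596, 6 libraries), against 50.3 in all other retained barcodes. Etv5, a transcription factor needed to keep the type 2 state, stood at 402 CPM (SD 47.5) against 9.75. The other barcodes include some with type 2 transcripts that the rule left out, as given below. Of the genes that define type 1 cells, Rtkn2 was at 4.65 CPM and Hopx at 28.3 in type 2 cells, against 3893 and 6537 in the 278 type 1 cells picked by their own rule (at least 5 UMIs of Ager and 1 of Rtkn2, at most 1 of Lamp3 and of Ptprc, none of Cdh5 or Foxj1). Ager, the receptor that marks type 1 cells, had the highest level of these in type 2 cells, with 723 CPM (SD 118) in type 2 cells against 14395 in type 1 cells. Since Ager and Rtkn2 chose the type 1 cells, their levels in those cells are descriptions, while Hopx was used by neither rule.

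Surfactant protein transcripts took a large but uneven part of the UMIs of a cell. Library medians ran from 18.1% to 22.1%, and the 10th percentile of cells from 4.20% to 12.6%. Sftpc, which encodes SP-C, was the most abundant transcript at 159248 CPM (SD 12507, 6 libraries). Behind it among genes of the cell type came Lyz2, the macrophage and type 2 cell lysozyme, at 25398 CPM (SD 2871), Sftpa1 at 21774 (SD 1491) and Sftpb at 10097 (SD 605). Sftpd stood at 4432 CPM (SD 261), the phosphate transporter Slc34a2 at 3092 (SD 203), the complement gene Hc at 2967 (SD 348), the stearoyl-CoA desaturase Scd1 at 2838 (SD 936) and the lamellar body protein Lamp3 at 1892 (SD 34.3). These CPM values come from 3' tags, which do not scale with transcript length. Relative to its mean Scd1 had the widest spread between libraries of these 9 genes, from 1938 to 4410 CPM.

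Genes that marked the cells most sharply against all other barcodes did so by closely similar factors. Of the 20 genes with the largest ratio, 18 lay between 135-fold and 153-fold, with Slc26a4, an anion exchanger, at the low end and Cxcl15 at the high end. Among them were Sftpc (153-fold), Chia1, an acidic chitinase (150-fold), Sftpa1 (145-fold), Sftpb (145-fold), the lectin Mbl1 (139-fold) and Sftpd (138-fold). The remaining pair were Cst8, a cystatin, at 186-fold and Sprr1a, a cornified envelope gene, at 666-fold. Sprr1a rested on an uneven level of 18.4 CPM (SD 27.9), from 0 to 72.6 CPM. Outside type 2 cells, 25.1% to 43.0% of the endothelial cells of a library, thinned to 5000 UMIs each, held an Sftpc UMI. The other barcodes include those that met the Lamp3, Slc34a2 and Sftpc limits but failed on Cdh5 (184), Ptprc (46) or Foxj1 (11). Over all other barcodes Sftpc stood at 1042 CPM, against 54.8 to 115 CPM in the endothelial cells of a library, picked with at most 1 Lamp3 UMI. The part of the barcodes left out in these ratios was not tested.

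The rule had few cells at its Lamp3 and Sftpc limits. Over all libraries, 3 members held exactly 2 Lamp3 UMIs, and 5 barcodes with 1 met every other criterion. Sftpc counted 20 to 29 UMIs in 4 members, and 9 barcodes at 10 to 19 were left out. More were left out for RNA of other cells, with 184 barcodes failing on Cdh5 alone, 46 on Ptprc and 11 on Foxj1. No doublet caller was run, and these exclusions were the only step against doublets.

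Libraries held 254200305 to 344421685 UMIs in all and 3761530 to 6660153 in type 2 cells. Any pair of libraries shared 45 to 85 retained barcode sequences, and no type 2 barcode was shared. Summed type 2 counts of libraries of the same group differed by more than sampling noise, with a chi-square per degree of freedom of 4.76 to 6.94, so no pair was treated as the same library deposited again.

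**Figure D1:**
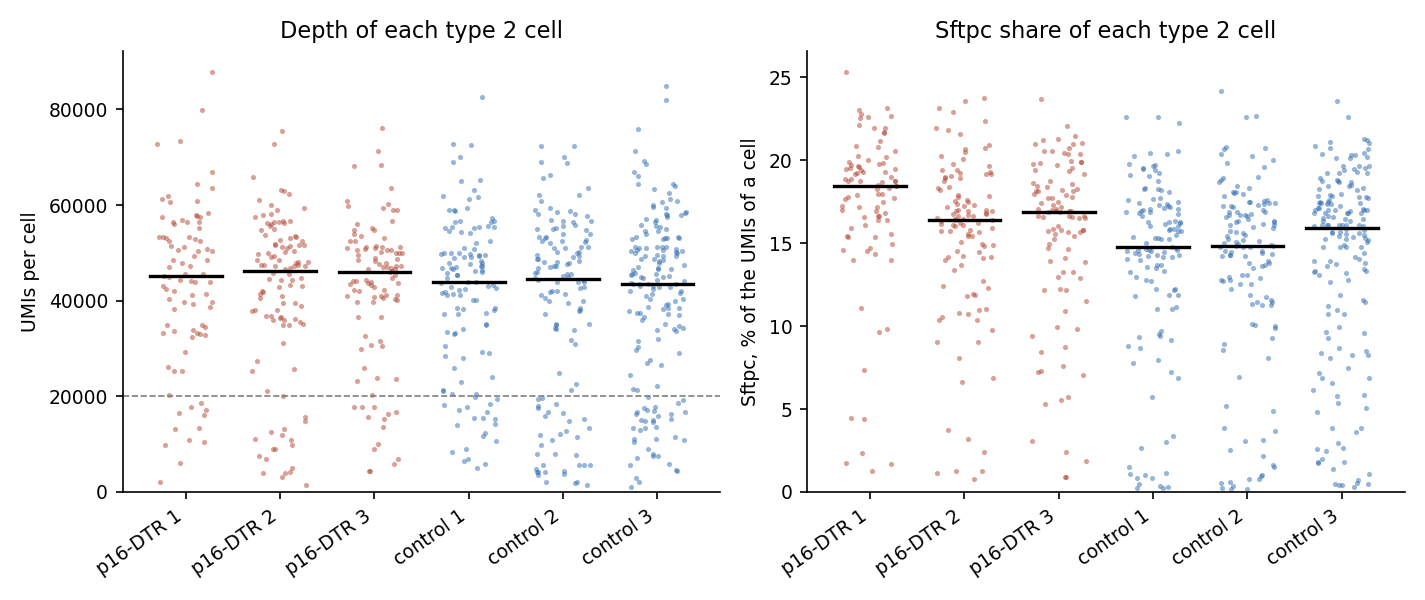
Each point is a type 2 cell, with its UMI count on the left and the Sftpc share of its UMIs (%) on the right, for the 3 p16-DTR-labelled libraries (red) and the 3 controls (blue), and black lines mark medians. Median depths lie between 43514.5 and 46208 UMIs, and a tail of cells below the dashed line at 20000 UMIs is present in all 6 libraries.

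Type 2 cells were deep, and most of them were alike in depth. Over all 721 cells the median was 44673 UMIs and 6250 genes, against library medians of 17356 to 18870.5 UMIs over all retained barcodes. A tail of 139 cells held fewer than 20000 UMIs. These had a median of 11779 UMIs, an Sftpc share of 6.88%, a mitochondrial share of 7.48% and a share of Malat1, a nuclear RNA, of 5.0%. In the other 582 cells the medians were 47817.5 UMIs, 16.6%, 3.46% and 2.35%. The shallow cells made up 13.8%, 17.3% and 13.9% of the type 2 cells in the p16-DTR-labelled libraries and 17.1%, 26.5% and 22.6% in controls, so the groups overlapped.

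RNA of other cell types was uneven between libraries. Markers of endothelial cells summed to 29.6 to 42.6 CPM in the p16-DTR-labelled libraries and 33.0 to 43.3 in controls, over 9 markers of which Cdh5 was at 0 by the rule. For alveolar macrophages the 8 markers summed to 16.9 to 28.7 against 25.1 to 29.1 CPM, with Ear1, Marco and Siglecf at 0 in every library. Fibroblast markers, 8 with none at 0, varied widely between libraries, from 21.4 to 187 CPM in the p16-DTR-labelled libraries and from 89.8 to 422 in controls. Secretory airway markers, 7 with none at 0, ran from 1173 to 6809 against 1441 to 2667 CPM, nearly all of it Scgb1a1, whose mean of 2567 CPM over the 6 libraries exceeded that of Lamp3. None of these lists separated the groups.

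High levels of such markers were seen in a few cells. Fibroblast markers exceeded 0.1% of the UMIs in 4, 2 and 0 cells of the p16-DTR-labelled libraries and in 6, 2 and 12 of the controls. Those 26 cells had a median of 32044.5 UMIs and an Sftpc share of 9.82%. Another 27 cells held at least 100 UMIs of Scgb1a1, the main secreted protein of club cells, together with at least 10 of Cyp2f2, a club cell cytochrome. They were 3, 7 and 1 against 7, 2 and 7 cells by library, with a median of 1082 Scgb1a1 UMIs, 49841 UMIs in all and an Sftpc share of 16.1%.

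Among type 2 cells of a library, the lysozyme gene Lyz2 varied most from cell to cell. Cells with at least 20000 UMIs were thinned to that depth, and the variance of Pearson residuals was taken within each library for 9723 genes, with a median of 1.19 over all genes. The highest median over libraries was that of Lyz2 (20.8), whose count ran from 83.4 UMIs at the 5th to 932.6 at the 95th percentile of cells. Next came Hc, complement component C5 (14.7), with 4 to 136 UMIs, Scgb1a1 (14.6), Fos (14.6) and Scd1 (14.0). The other genes of the leading 20, in order, were Cxcl15, Lyz1, Lcn2, Gclc, Jun, Fabp5, Acoxl, Egr1, Areg, Chia1, Anxa1, Sftpa1, Chil1, Cd74 and Sftpd. They include the siderophore binder Lcn2, the glutathione synthesis gene Gclc, the fatty acid carrier Fabp5, the growth factor Areg and the MHC class II chaperone Cd74.

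Several of these genes varied together within libraries. Given as the median over libraries of Spearman's rho across cells, which share their library and depth, the closest pairs were Lcn2 with Chil1 (0.63), Fos with Egr1 (0.58), Jun with Egr1 (0.53), Scd1 with Fabp5 (0.53), Sftpa1 with Sftpd (0.53) and Fos with Jun (0.53). Lyz2 went with Cxcl15 (0.47) and with Chil1 (0.47), and Areg, an epidermal growth factor receptor ligand, with Anxa1 (0.42). In the other direction the lowest value was that of Scgb1a1 with Cd74 (-0.34), followed by the peroxisomal oxidase Acoxl with Anxa1 (-0.31). The other pairs of the 190 among these 20 genes lay at 0.43 or below.

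Lyz1, the near-identical copy of Lyz2, was present at high level in a minority of cells. After thinning it counted 20 or more UMIs in 5.33%, 14.3% and 9.20% of cells in the p16-DTR-labelled libraries and in 6.86%, 12.4% and 6.15% in controls. It was at 0 in 51, 63 and 61 against 72, 63 and 104 cells. How the counting treated reads that match both copies was not examined, so the level of Lyz1 is uncertain. The groups overlapped.

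**Figure D2:**
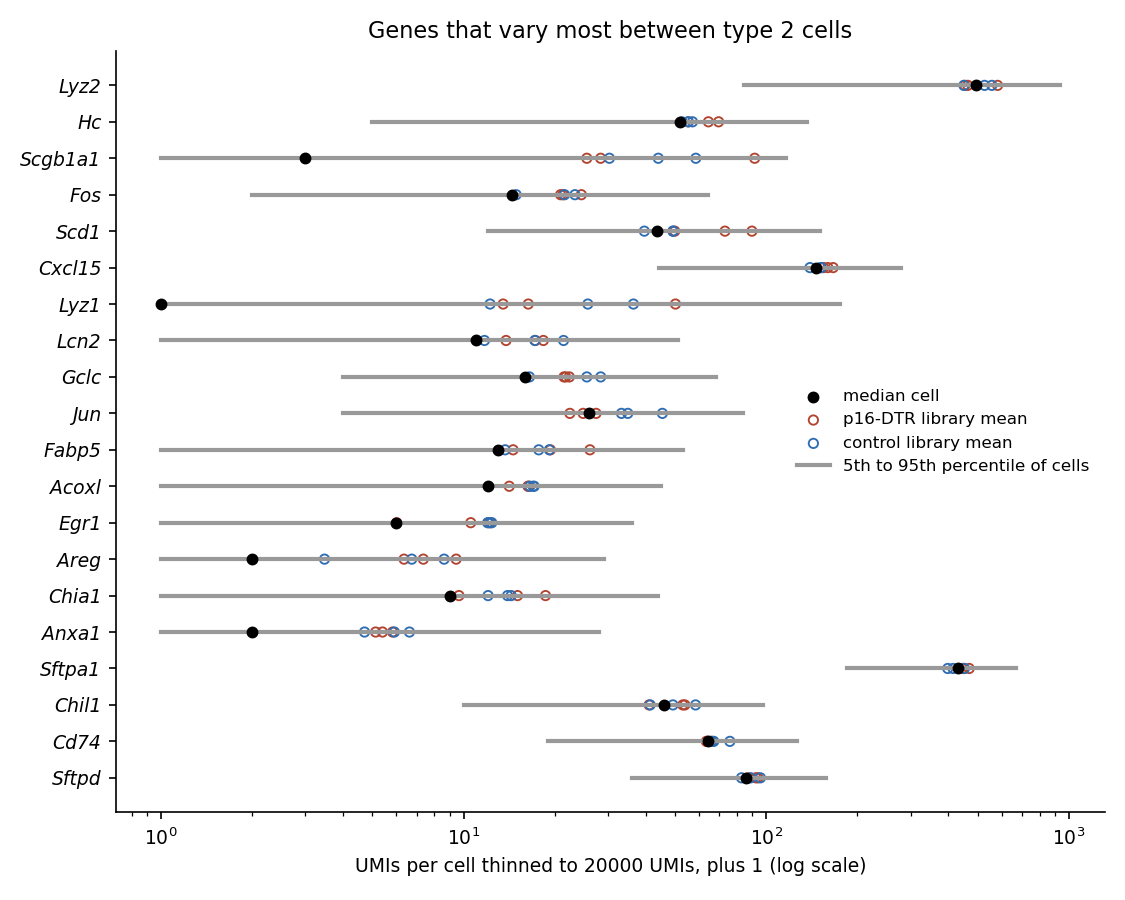
The 20 genes that varied most between type 2 cells, with UMIs per cell after thinning to 20000 UMIs (plus 1, log axis). Grey bars run from the 5th to the 95th percentile of all cells, black points are the median cell, and open circles are library means for the p16-DTR (red) and control (blue) labels. The bar of Lyz2 spans 83.4 to 932.6 UMIs while its library means stay within 449 to 581.

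The number of type 2 cells was compared over barcodes without a Ptprc UMI, since the sort fixed the mixture with CD45-positive cells. Type 2 cells, which could hold 1 Ptprc UMI, were set against the count of these barcodes. They came to 0.980%, 1.27% and 1.23% of that count in the p16-DTR-labelled libraries (1.16% ± 0.155, SD, n = 3). In controls they came to 1.08%, 1.55% and 1.68% (1.44% ± 0.314, n = 3). The groups overlapped (two-sided exact permutation p = 0.3). Without control replicate 1 the difference grew from -0.277 to -0.455 percentage points without overlap (exact permutation p = 0.1, the smallest possible). Over barcodes with at most 1 Ptprc UMI, the limit of the rule, the shares were 1.05% ± 0.135 and 1.33% ± 0.286, with overlap (exact permutation p = 0.3). Over all retained barcodes the shares were 0.676% ± 0.0699 and 0.958% ± 0.182 and did not overlap, at an exact permutation p of 0.1, the smallest that 3 libraries against 3 can give. Barcodes left out on Cdh5 alone numbered 34, 35 and 25 under the p16-DTR label and 21, 34 and 35 in controls. No alternative rule admitted them, and their part in these shares was not tested. A share of sorted cells depends on digestion and sorting and is not a number of cells in the lung.

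The depth of type 2 cells was slightly higher in the p16-DTR-labelled libraries. Median UMIs per cell were 45199, 46208 and 46069 (45825 ± 547, SD, n = 3) against 43833, 44577.5 and 43514.5 (43975 ± 546), without overlap (exact permutation p = 0.1, the smallest possible). With the stricter rule (at least 4 Lamp3, 2 Slc34a2 and 100 Sftpc UMIs and no Ptprc) the difference was 391 UMIs, and the groups overlapped (exact permutation p = 0.4). With at most 5% mitochondrial UMIs it was 749 UMIs, also with overlap (exact permutation p = 0.2).

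Cdkn2a encodes p16, the inhibitor of cyclin-dependent kinases whose locus drives the Cre, and it lies on chromosome 4 (89274471 to 89294653, minus strand, GRCm38). Type 2 cells held 23, 11 and 24 Cdkn2a UMIs in the p16-DTR-labelled libraries and 0, 0 and 1 in controls. The UMIs lay in 15, 6 and 15 cells against 0, 0 and 1, and no cell held more than 4. Pooled, 58 UMIs of 12521483 stood against 1 of 16768714, a ratio of 77.7 with a counting interval of 13.4 to 3120.2 (95%, exact conditional binomial). That interval leaves out the spread between libraries. The level was thus higher under the label of the group whose transgene marks p16-expressing cells for killing. Whether the labels, the Cre allele at the locus or free RNA have a part in this was not tested, and directions between groups are given for the libraries as they are labelled.

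The share of type 2 cells that held a Cdkn2a UMI was also compared at equal depth, and the groups did not overlap. Thinned to 20000 UMIs it was 14.7%, 4.40% and 6.90% under the p16-DTR label (8.65% ± 5.36, SD, n = 3), against 0%, 0% and 0.769% (0.256% ± 0.444, n = 3) in controls (exact permutation p = 0.1, the smallest possible). Pooled, these were 21 of 253 cells (95% Wilson interval 5.49% to 12.4%) and 1 of 329, intervals that cover counting error only. A count of 0 among the 102 and 97 cells of the first and second control library allows a share of up to 2.94% and 3.09%. Without thinning the shares were 12.5% ± 6.23 and 0.198% ± 0.344. Without p16-DTR replicate 1 the mean share in that group was 5.65%.

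Cdkn2a UMIs were also more frequent under the p16-DTR label in neutrophils, fibroblasts, endothelial cells and B cells. Thinned to 5000 UMIs, 1.38% of type 2 cells of the p16-DTR-labelled libraries (4 of 290) held a Cdkn2a UMI, all 4 cells in replicate 1, and 0 of 407 in controls, which allows up to 0.737%. By library under the p16-DTR label, type 2 cells had 4.65%, 0% and 0% and neutrophils, short-lived cells set beside them for comparison, 0.795%, 1.04% and 2.30%. Pooled, neutrophils had 1.33% and 0.0611%, at median depths of 10609 and 11657 UMIs against 46069 and 43833 in type 2 cells. Fibroblasts had 2.39% and 0.145%, endothelial cells 2.63% and 1.26%, and B cells 6.57% and 0.161%. By level, type 2 cells of the p16-DTR-labelled libraries had 4.73 ± 2.00 CPM (SD, n = 3), neutrophils 3.81 ± 1.52, fibroblasts 5.45 ± 0.893, type 1 cells 6.28 ± 2.66 and B cells 13.5 ± 2.11. Pooled, the share in type 2 cells at 5000 UMIs was close to that of neutrophils. By library the shares at this depth rest on 4, 0 and 0 cells from a single random draw, and no order between the cell types is read from them. By level, type 2 cells had 6.11, 2.44 and 5.65 CPM and neutrophils 2.83, 3.03 and 5.57 under the p16-DTR label, so the cell types overlapped. The part of free RNA in these counts was not tested. Counts per gene do not separate p16 from the other product of the locus, p19ARF.

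**Figure D3:**
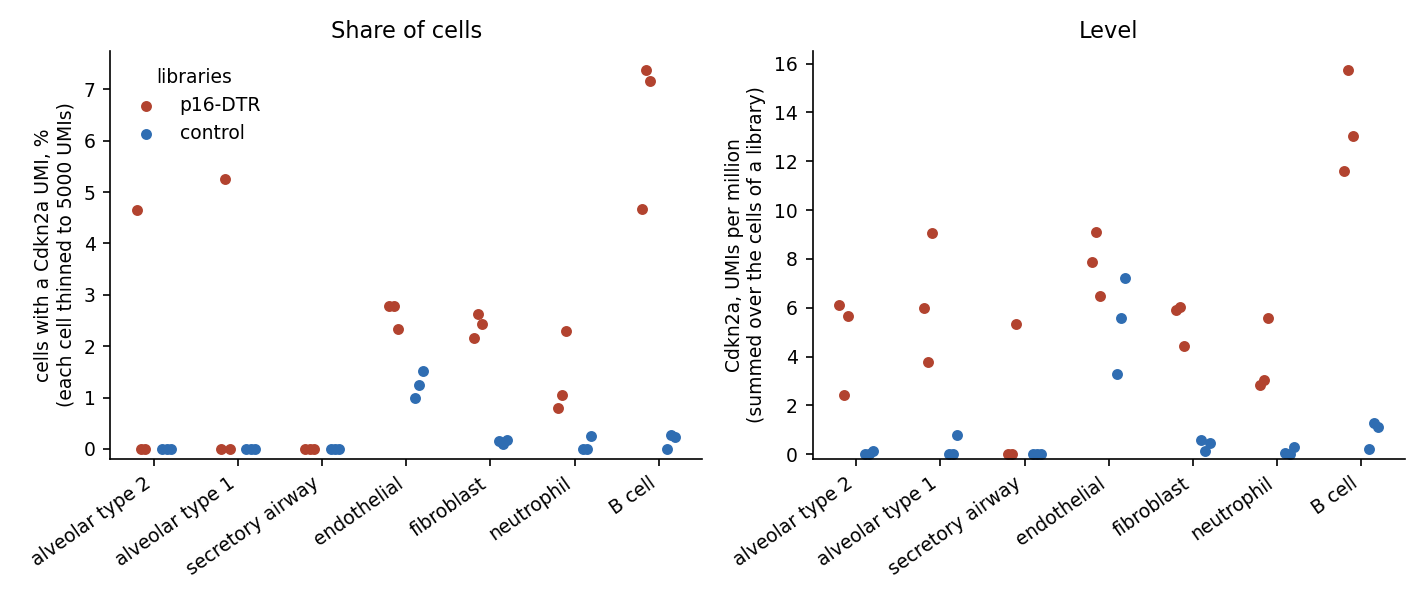
Cdkn2a in type 2 cells and in 6 other kinds of cell, as the share of cells with a UMI after thinning to 5000 UMIs (left, %) and as CPM of summed counts (right). Each point is a library labelled p16-DTR (red) or control (blue). In type 2 cells the right panel places all red points, 2.44 to 6.11, above the blue ones, while 2 of 3 red points on the left are at 0.

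Gene expression between the groups was compared on UMIs summed per library over type 2 cells, with edgeR's quasi-likelihood test over 11452 genes and Benjamini-Hochberg adjustment at 0.05. No gene passed (0% of genes tested). At an unadjusted p under 0.05 there were 1348 genes (11.8%), 627 higher (5.48%) and 721 lower (6.3%) in the p16-DTR-labelled libraries. Libraries of the groups did not overlap in 1049 genes that were higher (9.16%) and 915 that were lower (7.99%). DESeq2 with its own filtering, which started from 19673 genes, called 85, 35 higher and 50 lower, and edgeR without a filter on low counts called 170 of 19680. The balance of directions depended on the scaling. With library size alone in place of TMM factors, 228 genes were higher and 1244 lower at an unadjusted p under 0.05, so that 15.5% in place of 46.5% were higher. Sftpc alone takes 16.1% of the UMIs of the median cell, and its share by library is given below. Values that follow are TMM-scaled CPM, p is unadjusted where not said otherwise, and log2 differences are p16-DTR over control.

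Cdkn2a was not called in this fit, at a log2 difference of 5.87 (SE 0.81, adjusted p = 0.0962), a value that depends on the prior count because controls held 1 UMI. Across the alternatives its adjusted p ran from 5.5e-04 without a filter on low counts to 0.37 without p16-DTR replicate 3.

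The smallest p was that of Plk2, a polo-like kinase induced by p53 and growth signals (chromosome 13, 110395046 to 110400844). It stood at 29.2, 31.4 and 30.7 CPM in the p16-DTR-labelled libraries and at 58.8, 52.5 and 58.5 in controls, a log2 difference of -0.89 (SE 0.09, edgeR adjusted p = 0.0506). The groups did not overlap, and the gene is named here because its p was the smallest. With library size alone, among cells with at least 20000 UMIs, and without the cells highest in RNA of other types, it passed (edgeR adjusted p = 0.0339, 0.0484 and 0.0499). The adjusted p by edgeR was 0.183 with the stricter cell rule, 0.144 with equal numbers of cells and from 0.0438 (without control replicate 2) to 0.334 (without p16-DTR replicate 3) with a library left out, while the log2 difference stayed between -0.68 and -0.97 in all alternatives.

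Among the 8 genes with the smallest p that were lower without overlap, Col4a5, a chain of basement membrane collagen, stood at 50.3 ± 4.58 CPM against 81.4 ± 3.12 (SD, n = 3 each). Ripk1, a kinase of tumour necrosis factor signalling and cell death, was at 56.8 ± 8.53 against 116 ± 25.8. The others were Sbno2 (log2 difference -0.62), the Notch coactivator Maml2 (-0.74), the nucleolar protein Nop58 (-0.70), Tmem132d (-0.49) and Cp. Their adjusted p ran from 0.0506 to 0.129 by edgeR.

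Cp, ceruloplasmin, the copper-carrying ferroxidase (chromosome 3, 19957054 to 20009145), had the largest difference of the group. It was at 28.1, 13.2 and 8.23 CPM against 127, 62.9 and 92.9, a log2 difference of -2.55 (SE 0.37). Without the 10% of type 2 cells highest in RNA of other cell types the difference was -1.33. Fibroblast markers in type 2 cells ran from 21.4 to 187 and from 89.8 to 422 in unscaled CPM, and their part in the Cp level was not tested.

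The 8 genes with the smallest p that were higher without overlap were Pdlim2, Pdpk1, Glul, Hp, Cradd, Klf15, Adipor2 and Etfbkmt. Pdlim2, a cytoskeletal PDZ and LIM protein, was at 80.8, 79.4 and 76.7 CPM against 46.3, 55.0 and 53.2 (log2 difference 0.61, SE 0.09, edgeR adjusted p = 0.0962). Glul, glutamine synthetase, was at 187 ± 10.8 against 132 ± 11.1, and Hp, the haemoglobin-binding acute phase protein haptoglobin, at 711 ± 48.3 against 492 ± 49.9. Klf15, a transcription factor of metabolism and glucocorticoid response, was at 29.3 ± 4.20 against 16.7 ± 2.08, and the adiponectin receptor Adipor2 at 90.4 ± 6.85 against 67.1 ± 1.62. Pdpk1, the kinase that activates AKT, differed by 0.46, the death adaptor Cradd by 0.52 and the methyltransferase Etfbkmt by 1.04. Their adjusted p ran from 0.0962 to 0.141 by edgeR.

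**Figure D4:**
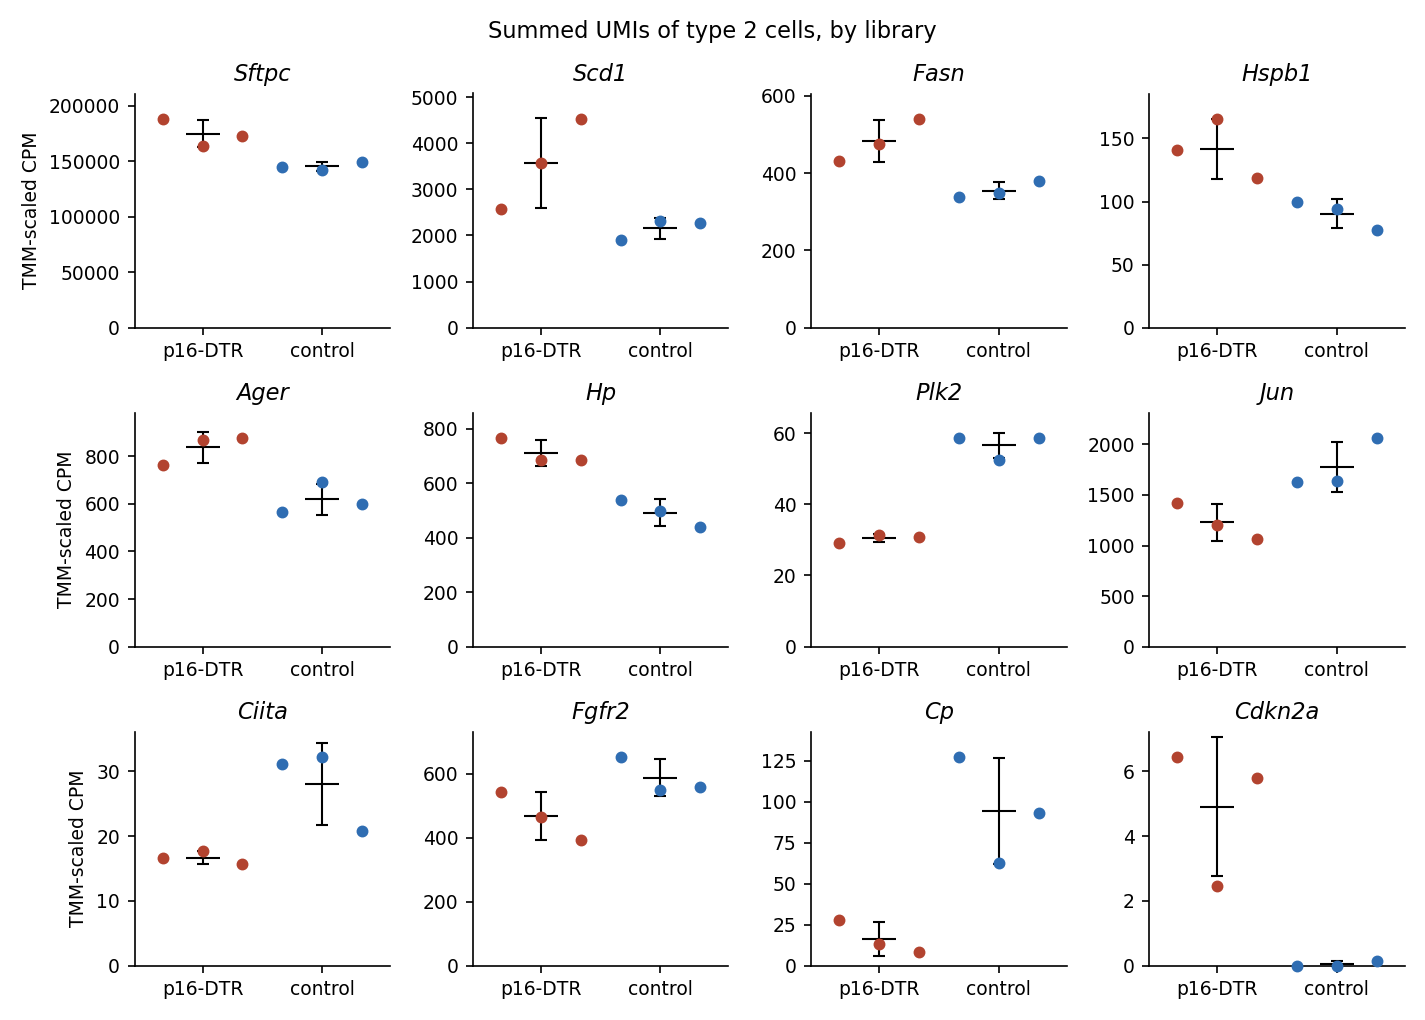
TMM-scaled CPM of 12 genes in summed type 2 counts, each point a library labelled p16-DTR (red) or control (blue), with the group mean (bar) and SD (whiskers, n = 3). Axes start at 0. Values of Plk2 lie at 29.2 to 31.4 against 52.5 to 58.8, and none of the 12 genes passed the adjusted threshold.

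Genes were then read by function, as counts of members at an unadjusted p under 0.05 in lists of 4 to 25 genes, beside the 5.48% higher and 6.3% lower over all genes, whose median log2 difference was -0.00. No member of a list was called in the main edgeR fit, though some passed in alternatives, among them Plk2, Cdkn2a and Scd2. The lists share some members and have no test of their own. With library size alone in place of TMM factors the medians of all 22 lists shifted by nearly the same amount (-0.08 in each), as did that of all genes (-0.08), which turned the inflammation and clock medians negative, so medians are read against that of all genes.

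Of the 3 surfactant protein genes that the selection did not use, Sftpa1 (log2 difference 0.22) and Sftpb (0.21) were higher at p under 0.05 and Sftpd stood at 0.14, with an adjusted p of 0.35 or more by edgeR. Sftpc, a selection gene, is given as a description, at 0.27. Sftpc was at 188423, 163881 and 172451 CPM in the p16-DTR-labelled libraries and at 145038, 141866 and 149650.3 in controls. Per cell, its median share of UMIs was 18.4%, 16.4% and 16.9% against 14.8%, 14.8% and 15.9%, and the 10th percentile of cells lay at 10.6%, 9.07% and 7.32% against 3.08%, 2.57% and 3.42%. The shallow cells described above, with a median Sftpc share of 6.88%, were 45 of 298 under the p16-DTR label and 94 of 423 in controls. In cells with at least 20000 UMIs the median Sftpc share was 18.5%, 16.7% and 17.1% against 15.7%, 15.5% and 16.6%. The median log2 difference of Sftpa1, Sftpb and Sftpd was 0.19 in those cells and 0.21 in all. The part of the shallow cells was not tested further.

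The machinery of surfactant lipid and lamellar bodies had 3 of 16 members higher at p under 0.05, none lower and a median of 0.12, with the selection genes Lamp3 and Slc34a2 left out. One of the 3 is Sftpb, which is also among the surfactant proteins. Napsa, the protease that matures SP-B, was at 2079 ± 52.9 against 1764 ± 55.8 CPM (SD, n = 3 each), and Lpcat1, the acyltransferase that makes dipalmitoyl lecithin, at 1206 ± 10.2 against 1065 ± 65.7. Abca3, the lipid pump of the lamellar body, differed by 0.12, without overlap but short of an unadjusted p of 0.05. Transcription factors of the type 2 state showed no member of 13 at p under 0.05 and a median of -0.05, from -0.11 without control replicate 3 to -0.00 without p16-DTR replicate 3. Nkx2-1, the lineage factor, was at 283 ± 7.45 against 288 ± 13.5 CPM and Etv5 at 379 ± 23.1 against 426 ± 35.9, both with overlap.

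Fatty acid synthesis had 6 of 18 members higher and 1 lower, with a median of 0.10. Scd1, which makes monounsaturated fatty acids (chromosome 19, 44394455 to 44407879), was at 2584, 3567 and 4536 CPM against 1896, 2311 and 2274, a log2 difference of 0.72 (SE 0.18, edgeR adjusted p = 0.229). All its p16-DTR values exceeded all controls, and they spread more widely than the controls did. Fasn, fatty acid synthase, was at 432, 475 and 541 against 337, 348 and 379 CPM (0.45, SE 0.10), and Scd2 at 339.8, 482 and 488 against 301, 308 and 312 (0.51, SE 0.13). The lower member was Acsl1, a long-chain acyl-CoA ligase (-0.37). Per cell, the list made up a median of 0.535%, 0.698% and 0.782% of UMIs against 0.488%, 0.525% and 0.541%, so p16-DTR replicate 1 lay within the control range and the groups overlapped. The median of the list was 0.05 without p16-DTR replicate 3 and 0.19 without control replicate 1.

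Cholesterol synthesis had 2 of 16 members higher, none lower and a median of 0.20. Fdps, farnesyl diphosphate synthase, differed by 0.49, with overlap between groups. The median of this list ran from 0.07 without p16-DTR replicate 3 to 0.30 without control replicate 3. Xenobiotic and antioxidant enzymes had 5 of 20 higher and none lower, with a median of 0.13. Cyp2b10, a lung cytochrome, was at 233, 181 and 237 CPM against 96.3, 134 and 147 (0.78, SE 0.16, edgeR adjusted p = 0.169), and Prdx6, a peroxiredoxin that also recycles surfactant lipid, at 446 ± 37.5 against 347 ± 11.7.

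Heat shock chaperones had 8 of 15 members higher and 1 lower at p under 0.05, with a median of 0.37. Hspb1, a small heat shock protein, was at 141, 166 and 118 CPM against 99.4, 94.0 and 77.8 (0.65), and Hspa8, the constitutive Hsp70, at 961, 1339 and 839.5 against 709, 741 and 740.4 (0.52). The highest value of both was that of p16-DTR replicate 2, without which the median of the list was 0.17. Per cell, the list made up a median of 0.328%, 0.486% and 0.300% of UMIs against 0.305%, 0.311% and 0.307%, so p16-DTR replicate 3 lay below every control. The lower member was Dnajb4 (-0.34). Endoplasmic reticulum stress genes had 6 of 22 higher and none lower, with a median of 0.16 (0.09 without p16-DTR replicate 2 and 0.09 without control replicate 3), led by Herpud1 of the degradation pathway (0.54), Creld2 (0.44) and Manf (0.31). Oxidative phosphorylation had 4 of 23 higher, none lower and a median of 0.15, with cytochrome c (Cycs) at 0.32 the largest.

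Genes of dissociation and immediate early response were lower at p under 0.05 in 6 of 19 members and higher in none, with a median of -0.23. Jun, an AP-1 subunit, was at 1419, 1206 and 1062 CPM against 1627, 1638 and 2067 (-0.53, SE 0.13), and Socs3, the feedback inhibitor of cytokine signalling, at 219, 241 and 129 against 326, 255 and 349 (-0.66, SE 0.21), both without overlap. Fos, the partner of Jun, stood at 0.26, with overlap and short of an unadjusted p of 0.05. The median of the list was -0.08 without control replicate 3 and -0.12 without p16-DTR replicate 3.

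Growth factor receptors and niche signals had 4 of 21 members lower and none higher, with a median of -0.09 that was -0.05 without p16-DTR replicate 3. Fgfr2, the receptor through which fibroblast growth factors maintain type 2 cells, was at 544, 464 and 393 CPM against 654, 549.7 and 558 (-0.33, SE 0.12). Egfr, the receptor of Areg and Hbegf, was at 19.8 ± 6.01 against 30.1 ± 3.29 (-0.62, SE 0.20), without overlap. Fgfr1 (-0.86) and Axin2, a Wnt target that marks progenitor type 2 cells (-0.46), were lower at levels under 20 CPM. Fgfr1 moved to -0.63 without the cells highest in RNA of other types. Hbegf itself, whose product binds diphtheria toxin in primates and was the source of the receptor transgene, was at 50.9 ± 14.8 against 36.7 ± 10.1 CPM, with overlap.

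Genes of the transitional state between type 2 and type 1 cells had 1 of 19 higher, 2 lower and a median of -0.05. That median ran from -0.22 without control replicate 1 to 0.08 without control replicate 3 and was 0.09 with the stricter cell rule. Tnfrsf12a, the TWEAK receptor, was at 42.6 ± 5.51 CPM against 27.2 ± 6.92 (SD, n = 3 each), Itgb6, an integrin that activates TGF-beta, at 17.1 ± 2.25 against 23.1 ± 0.624, and Krt8, the keratin of this state, at 182 ± 22.4 against 167 ± 25.4. Of the type 1 genes, 2 of 13 were higher and 1 was lower, with a median of 0.08 that ran from 0.03 without control replicate 1 to 0.16 without control replicate 3. Ager was at 763, 869.8 and 878 against 564, 689.9 and 601 CPM (0.44, SE 0.10, edgeR adjusted p = 0.204), and Gprc5a at 216 ± 6.08 against 156 ± 21.0, while Cav1, of caveolae, was lower at 5.29 ± 0.652 against 8.69 ± 2.54. Marker genes of type 1 cells summed to 831 to 980 CPM against 682 to 832 (unscaled CPM), most of it Ager.

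Inflammation genes had 3 of 18 members higher and 2 lower, with a median of 0.00 that ran from -0.06 to 0.15 with a library left out (p16-DTR replicate 1 and control replicate 1). Hp, Cxcl15 and Lrg1, a leucine-rich acute phase glycoprotein (0.58), were higher, and Nfkbia, the inhibitor of NF-kappaB (-0.27), was lower. Cxcl1, a neutrophil chemokine, was at 9.26, 1.57 and 19.1 CPM against 114, 61.7 and 16.2 (-2.68, SE 0.76), with overlap and a wide spread in both groups. MHC class I genes had 2 of 11 higher, H2-K1 (0.30) and Tapbp (0.25), and none lower. MHC class II genes had none of 8 higher and 1 lower. That was Ciita, the transactivator of the class, at 16.6, 17.7 and 15.7 CPM against 31.1, 32.3 and 20.7 (-0.74, SE 0.18), while Cd74, the invariant chain, stood at 3231 ± 18.1 against 3296 ± 306, with overlap.

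The interferon list had the lowest median, -0.32, with 4 of 13 members lower and 1 higher, and the other 9 of its 22 genes were too low to test. Ifit2 rested on 2, 1 and 0 UMIs against 11, 12 and 16, a pooled level 9.71 times higher in controls (counting interval 3.09 to 49.1). That interval covers counting error only and leaves out the spread between libraries. Xaf1 (-0.70) and the interferon regulatory factor Irf1 (-0.32) were lower and Ifi27 higher (0.29). With a library left out the median of the list ran from -0.73 (without p16-DTR replicate 2) to -0.24 (without p16-DTR replicate 3). Per cell, the list made up a median of 0.0247%, 0.0284% and 0.0243% of UMIs against 0.0271%, 0.0263% and 0.0309%, with overlap.

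Cell cycle inhibitors and p53 targets had 2 of 22 members higher and 3 lower. Besides Cdkn2a, the higher one at p under 0.05 was Gdf15, a stress cytokine, at 9.26, 28.9 and 49.4 CPM against 9.73, 7.07 and 14.6, with overlap. Plk2, the death receptor Fas (-0.61) and Btg2 (-0.25) were lower. Cdkn1a, which encodes p21, was at 75.3 ± 13.5 against 81.7 ± 23.7 CPM, and its direction turned when p16-DTR replicate 1 or control replicate 3 was left out. Secretory senescence genes had 1 of 17 higher, again Gdf15 (0.88 without p16-DTR replicate 3, against 1.47), and 3 lower, Cxcl1, Igfbp3 (-1.84) and Tgfb2 (-2.43), the last at 1.16 ± 0.996 against 6.60 ± 3.73 CPM. Igfbp3 rested on 15, 6 and 3 UMIs against 63, 14 and 47, beside fibroblast markers of 187, 147 and 21.4 unscaled CPM against 422, 89.8 and 301, whose part in it was not tested. Without the cells highest in RNA of other types Igfbp3 and Tgfb2 were too low to test, and the median of the list was 0.24 in place of -0.01. Of 18 proliferation genes 5 could be tested and none had p under 0.05. A single cell, in p16-DTR replicate 3, held both Mki67 and Top2a.

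Glucocorticoid-induced genes had 2 of 15 higher, Ddit4 (0.58) and the sodium channel subunit Scnn1a (0.30), and none lower. Clock genes had none of 16 higher and 1 lower, the receptor Rora at 169 ± 18.5 against 221 ± 14.8 CPM. Their median of 0.03 was 0.01 without p16-DTR replicate 1. It was negative with any other library left out, down to -0.09 without control replicate 1.

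**Figure D5:**
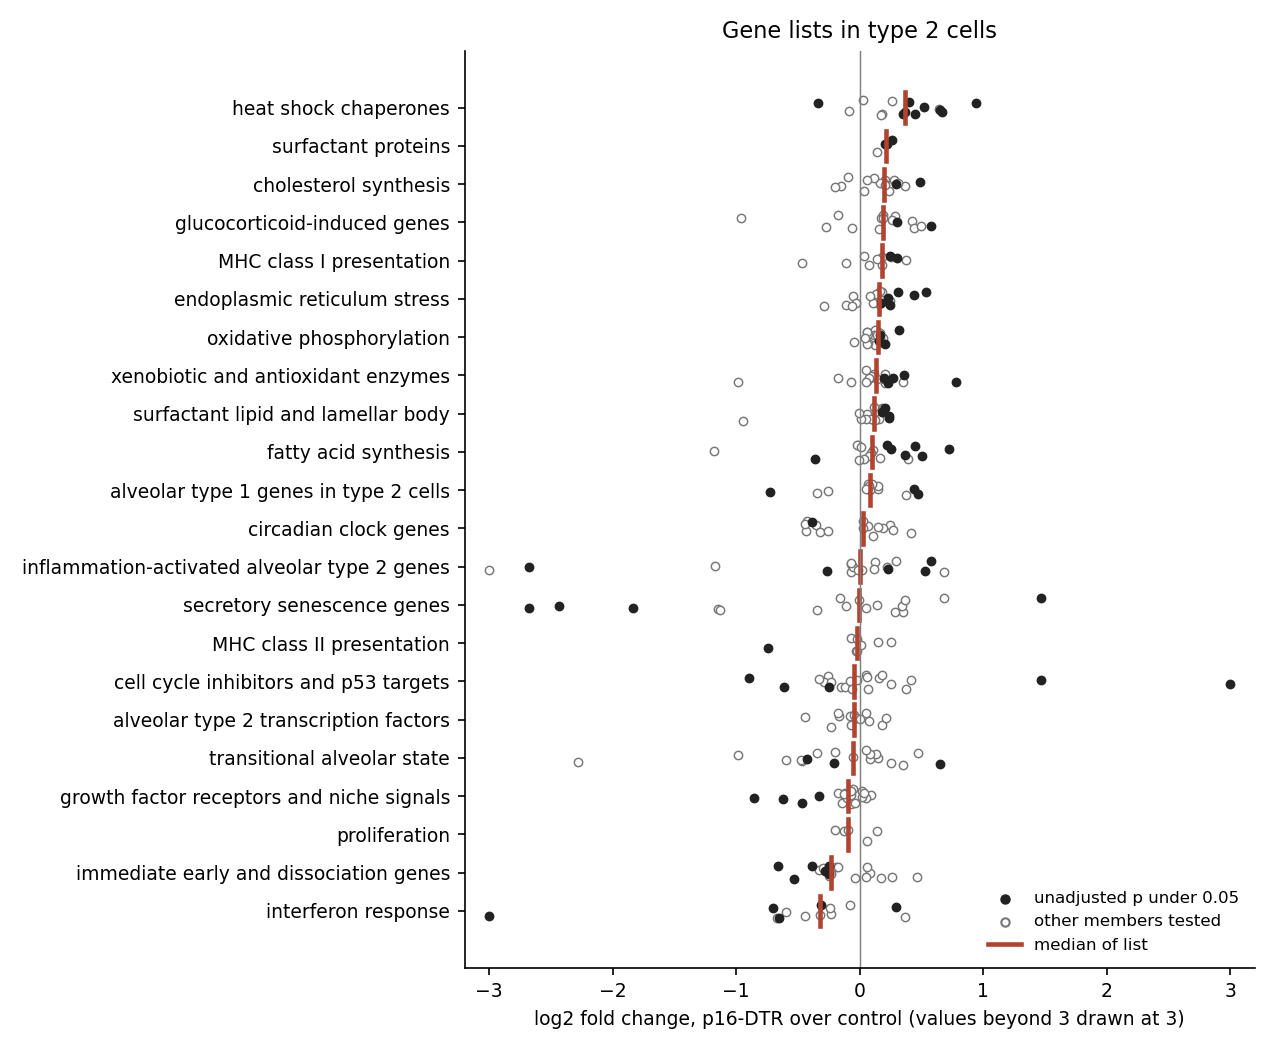
Log2 differences (p16-DTR over control) of the tested members of 22 gene lists in type 2 cells, with filled points at an unadjusted p under 0.05 and red bars for list medians. Medians run from -0.32 for interferon genes to 0.37 for heat shock chaperones, and values beyond 3 are drawn at 3. The selection genes Sftpc, Lamp3 and Slc34a2 are drawn within the surfactant lists.

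Whether these differences were particular to type 2 cells was asked against type 1 cells of the same libraries, with the library as a block. Type 1 cells were few, 35, 26 and 32 in the p16-DTR-labelled libraries and 36, 79 and 70 in controls. None of 11459 genes differed in its group effect between the cell types after adjustment (0%), and 535 (4.67%) had p under 0.05 by edgeR. The smallest adjusted p was 0.958. By smallest p the genes were the planar polarity gene Prickle2, Hs6st3, Rasl11a, Ctps and Ly6e. Ctps, which makes cytidine triphosphate, was at 73.1 ± 9.65 against 140.4 ± 30.0 CPM (unscaled, SD, n = 3 each) in type 2 cells and at 124 ± 10.1 against 102 ± 12.6 in type 1 cells. Ly6e was at 673 ± 45.3 against 700.4 ± 128 in type 2 cells and at 62.3 ± 4.96 against 23.8 ± 7.07 in type 1 cells. For Cdkn2a the log2 difference between the effects was 1.43 (SE 1.62, edgeR adjusted p = 0.983). No difference described above is therefore shown to be specific to type 2 cells.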

How the data were processed

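Lung cells of 6 libraries were sequenced with 10x Genomics GEM-X 3' chemistry. For 31054 features, the deposited files give the number of UMIs (raw counts) in each barcode, made by the authors with Cell Ranger 8.0.1 per the file headers, against mm10 per the submitters' processing notes. Positions are from GENCODE M21 (GRCm38). Groups were taken from the labels. The members and lists were chosen with earlier results of these data known. UMIs were summed per library over type 2 cells and tested with edgeR 4.0.16 in R 4.3.3 (filterByExpr, TMM, quasi-likelihood, Benjamini-Hochberg at 0.05, group alone). SE values were derived from the F statistic. DESeq2 1.42.0 was an alternative. Library shares and medians were compared with two-sided exact permutation tests. Differences between type 2 and type 1 cells were tested with the library as block. Thinning drew UMIs without replacement, and the residual variance used a theta of 100. The fit was tested on simulated data.

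Named genes were Cdkn2a, Cdkn1a, Hbegf and tdTomato, 10 type 2 genes, the 8 genes in each direction with the smallest p, no overlap and at least 10 CPM, up to 4 genes of smallest p per list, the 20 most variable genes, the 5 of smallest p against type 1 cells and the 20 with the largest ratio to other barcodes. That last rule was given a minimum of 10 CPM and more than 3 UMIs elsewhere after values were seen. Acsl1, Fas and Krt8 and the type 1 genes Hopx and Rtkn2 were chosen after their values were seen. Some genes that the rule names are not reported here.

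Alternatives were RLE or library-size scaling, DESeq2, a replicate block, the fit without a filter on low counts, stricter and looser cell rules, at most 5% mitochondrial UMIs, no cells highest in RNA of other types, equal numbers of cells (87 per library) and each library left out. Cells with at least 20000 UMIs, with and without those highest in other RNA, were added after seeing the data.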

Additional observations from a re-analysis of the deposited data

How the results depend on the processing

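The count of called genes (0) was 1 with library size alone, 2 with the replicate block, 12 without the cells highest in RNA of other types, 170 without the filter on low counts, which tested 19680 genes, and 85 with DESeq2, where the tool and the filter both differed (19673 genes). It was 1 in cells with at least 20000 UMIs and 12 in those without the cells highest in other RNA, both added after seeing the data. Leaving out a library gave 0 to 7 calls, 7 without control replicate 2 and 4 without p16-DTR replicate 1. The count at an unadjusted p under 0.05 (1348) was 866 of 19673 genes with DESeq2 and 886 to 1458 with a library left out, the lowest without control replicate 1. Cdkn2a, not called at 5.87, passed with DESeq2 (6.28), without the filter (5.87) and without the cells highest in other RNA (5.59), and its log2 difference was 5.48 to 7.46 with a library left out. The difference between type 2 and type 1 cells (0 genes) was 86 genes without the filter, which tested 20216, and 0 to 1 with a library left out (1 without control replicate 2). For DESeq2, the scalings and the cell sets the cause was not tested. Replicate numbers showed no sign of pairing the samples, though so few libraries cannot exclude it. Deviations of equally numbered libraries correlated at 0.30, -0.00 and -0.17, within the range of differently numbered ones (-0.34 to 0.37). The block gave 2 calls, Pmvk and Cp.

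None of the 103 named genes was called in the main fit, and 39 were called in at least 1 alternative. Of the 103, 96 kept their direction in every alternative that gave a value. The other 7 reversed in at least one, none of them called. Pcna (0.06) was at -0.024 with library size alone, at -0.0039 in cells with at least 20000 UMIs, and at -0.056 (without p16-DTR replicate 1) to 0.18 with a library left out. Lgals3 (-0.34) was at 0.028 with the stricter rule. With a library left out, Cdkn1a (-0.12) ran from -0.25 to 0.15, Mcm6 (-0.20) from -0.40 to 0.059, H2-Eb1 (-0.07) up to 0.016, Nkx2-1 (-0.03) from -0.054 to 0.011 and Tyms (-0.13) up to 0.079. Depth limits low genes, with 1 and 3 UMIs in the lower group for Cdkn2a and Ifit2 and 5 of 18 proliferation genes testable, and type 1 cells numbered 26 to 79 a library.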

Other observations

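The entry tdTomato, a fluorescent reporter that the labels do not mention, had 3 UMIs in type 2 cells, in 3 cells of p16-DTR replicate 3, and none in the other 5 libraries. Outside type 2 cells it was found in all 3 p16-DTR-labelled libraries, in 22, 28 and 28 endothelial cells and in 17, 16 and 21 fibroblasts. It was also found there in 8, 6 and 10 B cells and in 1, 0 and 1 neutrophils. In the controls none of these kinds of cell held it. The count in type 2 cells equals the floor of 3 counts, and no fold is given. Mki67, a gene of dividing cells and too low to test, had 5, 13 and 28 UMIs under the p16-DTR label and 0, 4 and 5 in controls. Its UMIs lay in 3, 8 and 4 cells against 0, 2 and 5, and Top2a UMIs in 0, 0 and 3 against 1, 0 and 3.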
